A study of Mus musculus with 2 samples.

Results

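Long noncoding RNA genes of 2 kinds are described here in resistance arteries held at resting or at depolarizing K+: Malat1 and Neat1, whose RNAs stay in the nucleus, and the snoRNA hosts Gas5, Snhg1, Snhg3, Snhg8 and Snhg12. They were chosen by name, as the 7 symbols of the list among 55573 genes with a row of read counts. A row was matched by symbol for 5 of them, and 4 had at least 1 read. Snhg1 and Snhg8 matched no row by symbol and were not analysed here. The data are 2 RNA-seq libraries of mesenteric artery from C57BL/6 wild type mice aged 10 weeks, each made from tissue pooled from 2 mice. The control group (5K) was kept in 5 mM K+ and the depolarized group (60K) in 60 mM K+, for 60 min each per the labels' treatment field, although the protocol text given with both samples names 60 mM K+. The comparison asked which transcripts differ when arterial muscle is depolarized for long enough to change transcription. The study's methods give the control vessels as a ligated segment, taken after an incubation without perfusion and before the high K+ perfusion. K+, perfusion, segment and time of harvest therefore cannot be told apart. With 1 library per condition the differences could not be set against replicates and are given without p-values.

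Malat1 RNA gathers at nuclear speckles, the stores of splicing factors, and Neat1 RNA is the scaffold around which paraspeckles assemble. Gas5 and the Snhg genes are spliced RNAs whose introns carry small nucleolar RNAs (snoRNAs), which guide the chemical modification of ribosomal RNA. The snoRNA is trimmed from the intron, while the spliced host RNA is exported and, when ribosomes engage its short reading frames, degraded by nonsense-mediated decay. Several host RNAs begin with a run of pyrimidines at the cap, as ribosomal protein mRNAs do.

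Depolarization of arterial muscle acts on transcription in part through CREB, a factor that binds the letters TGACGTCA or the shorter TGACG. The windows from 250 bases before to 50 bases after the RefSeq start sites (assembly GRCm38.p6) were therefore read for these letters. The sequences of Gas5, Snhg12 and Malat1 are shown because these genes had reads and their windows held a match. Capitals mark TGACG and its reverse complement CGTCA, and in Gas5 the full TGACGTCA, which contains both of the shorter forms overlapping.
Gas5, second RefSeq start site, chr1:161034916-161035215, plus strand: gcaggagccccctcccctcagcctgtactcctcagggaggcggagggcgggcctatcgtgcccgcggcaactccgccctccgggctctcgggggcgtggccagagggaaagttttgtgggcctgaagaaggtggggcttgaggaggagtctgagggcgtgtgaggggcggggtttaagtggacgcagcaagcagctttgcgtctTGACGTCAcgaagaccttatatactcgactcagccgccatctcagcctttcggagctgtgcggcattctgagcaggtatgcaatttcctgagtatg
Snhg12, chr4:132308428-132308727, plus strand: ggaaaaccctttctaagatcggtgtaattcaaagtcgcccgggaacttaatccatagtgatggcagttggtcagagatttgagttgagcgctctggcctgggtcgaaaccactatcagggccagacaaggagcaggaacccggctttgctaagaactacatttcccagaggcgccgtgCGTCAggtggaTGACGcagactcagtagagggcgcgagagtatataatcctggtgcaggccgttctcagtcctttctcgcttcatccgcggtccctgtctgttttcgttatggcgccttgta
Malat1, chr19:5802623-5802922, minus strand: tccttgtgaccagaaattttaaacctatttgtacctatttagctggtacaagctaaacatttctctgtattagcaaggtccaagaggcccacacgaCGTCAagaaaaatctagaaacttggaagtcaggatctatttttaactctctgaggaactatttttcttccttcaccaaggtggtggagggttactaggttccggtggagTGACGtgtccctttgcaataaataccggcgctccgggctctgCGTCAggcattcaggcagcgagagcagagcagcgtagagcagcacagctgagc

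The full TGACGTCA of Gas5 began 46 bases upstream of its start and was absent from the window of the gene's other RefSeq start. TGACGTCA, which reads the same on both strands, was present in 588 of 32851 promoter windows of this length (1.79%). Snhg12 held 2 copies of the shorter form, beginning 72 and 61 bases upstream, and Malat1 held 3, beginning 154, 45 and 3 bases upstream. TGACG on either strand was present in 6837 of the 32851 windows (20.8%), so that the shorter match is common. The window of Snhg3 held neither form, and Neat1 had no entry. Within 20 bases of the start, Snhg12 had a run of 9 pyrimidines, TCCTTTCTC, and the second start of Gas5 had a run of 6, CCTTTC, whereas Malat1, the host Snhg3 and the first start of Gas5 had no run of at least 6. Such a run was found in 12308 of the 32851 windows (37.5%). These are matches of letters, and no binding was measured in these libraries.

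The 4 genes with reads covered a wide range of read counts, and the nuclear pair had far more reads than the hosts. Read counts also grow with transcript length, and levels per length, where the gaps are smaller, are given below. Malat1 (ENSMUSG00000092341, chr19:5795690-5802671 on NCBIM37/mm9, minus strand) had 9851 reads in the 5K library and 9745 in the 60K library, or 940 and 863 counts scaled to a library of 1000000 reads (CPM). Neat1 (ENSMUSG00000092274, chr19:5824708-5845478, minus strand), which lies 22036 bases from Malat1, had 8331 and 8705 reads, or 795 and 771 CPM. Both were far above the counting floor in either library. Gas5 (ENSMUSG00000053332, chr1:162964553-162968670, plus strand) had 523 and 658 reads, or 49.9 and 58.3 CPM. Snhg12 (ENSMUSG00000086290, chr4:131864593-131866939, plus strand) had 114 and 154 reads, or 10.9 and 13.6 CPM. Snhg3 (ENSMUSG00000085241, chr4:131903929-131909601, minus strand) had 0 reads in either library. A count of 0 allows up to 3 reads, or 0.286 CPM in the 5K and 0.266 CPM in the 60K library. The Snhg3 span overlaps Rcc1, a chromatin-bound exchange factor for the nuclear transport GTPase Ran, on the same strand over 5592 bases, of which 135 are exonic in both genes. Gm17300, a noncoding gene on the other strand with 0 reads in both libraries, shares 705 of the 986 exonic bases of Snhg3. Rcc1 had 85 and 68 reads, and how the counting program shared reads between overlapping genes is not given in the sources used here, so the limit is on reads assigned to Snhg3 and not on its RNA.

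Together the 4 genes with reads took 18819 of 10480918 reads in the 5K library (0.180%) and 19262 of 11289598 in the 60K library (0.171%), nearly all from Malat1 and Neat1. These 2 RNAs held 28.8% of the reads on annotated noncoding genes in the 5K library and 25.9% in the 60K library. Among 2933 genes annotated as noncoding in GENCODE vM1, Malat1 ranked 1 in the 5K library and 2 in the 60K library. Neat1 ranked 2 and 3, since another noncoding gene passed both in the 60K library. Gas5 ranked 20 and 15, and Snhg12 ranked 63 and 47. These ranks and shares leave out the 22972 rows that are not in GENCODE vM1, which may hold other noncoding genes. Among all 55573 genes, by reads, Malat1 ranked 104 and 136, Neat1 137 and 163, Gas5 3950 and 3162, and Snhg12 9102 and 7962. In whole arteries, fewer cells of a type and less RNA per cell cannot be told apart.

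Levels of different genes were compared per length, with the deposited FPKM (reads scaled by transcript length and library total) and its exact Poisson 95% interval. These intervals, like all others given here, cover counting error only. Malat1 was at 433 FPKM (424.6 to 442) in the 5K library and 398 (390 to 406) in the 60K library. Neat1 was at 125 (122 to 127) and 121 (118 to 123). Gas5 was at 67.3 (61.7 to 73.4) and 78.7 (72.8 to 84.9). Snhg12 was at 11.4 FPKM (9.42 to 13.7) and 14.3 (12.2 to 16.8). The order was Malat1, Neat1, Gas5, Snhg12 in both libraries, and the intervals of neighbours in that order did not overlap within a library. The deposited values implied lengths of 2170 bases for Malat1 and 6379 for Neat1, whereas their annotated exons cover 6982 and 20771 bases. For Gas5 the implied length was 741 bases against 3760 exonic bases over 25 annotated transcripts, and for Snhg12 it was 952 against 1626. The longest annotated Snhg12 transcript has 933 bases, fewer than the implied length.

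Merged exons were those of GENCODE vM1, whose gene models may not be those behind the counts. Rescaled to them, Malat1 was at 135 CPM per kilobase in the 5K library and 124 in the 60K library. Neat1 was at 38.3 and 37.1. Gas5 was then at 13.3 and 15.5, and Snhg12 at 6.69 and 8.39. The order did not change, but the gaps did. On the FPKM scale Neat1 was 1.85 times Gas5 in the 5K library and 1.54 times in the 60K library, against 2.88 and 2.39 times per exon length. Gas5 was 5.89 and 5.49 times Snhg12 on the FPKM scale and 1.98 and 1.85 times per exon length. The ratio of Malat1 to Neat1 was 3.48 and 3.29 on the FPKM scale and 3.52 and 3.33 per exon length. These agree because both kinds of length stand in nearly the same proportion for the 2 genes (2170 to 6379 and 6982 to 20771 bases). The Neat1 exons include a transcript of 20771 bases. No length without that transcript was tried, so the ratio and order on shorter Neat1 transcripts alone are not known here.

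**Figure D1:**
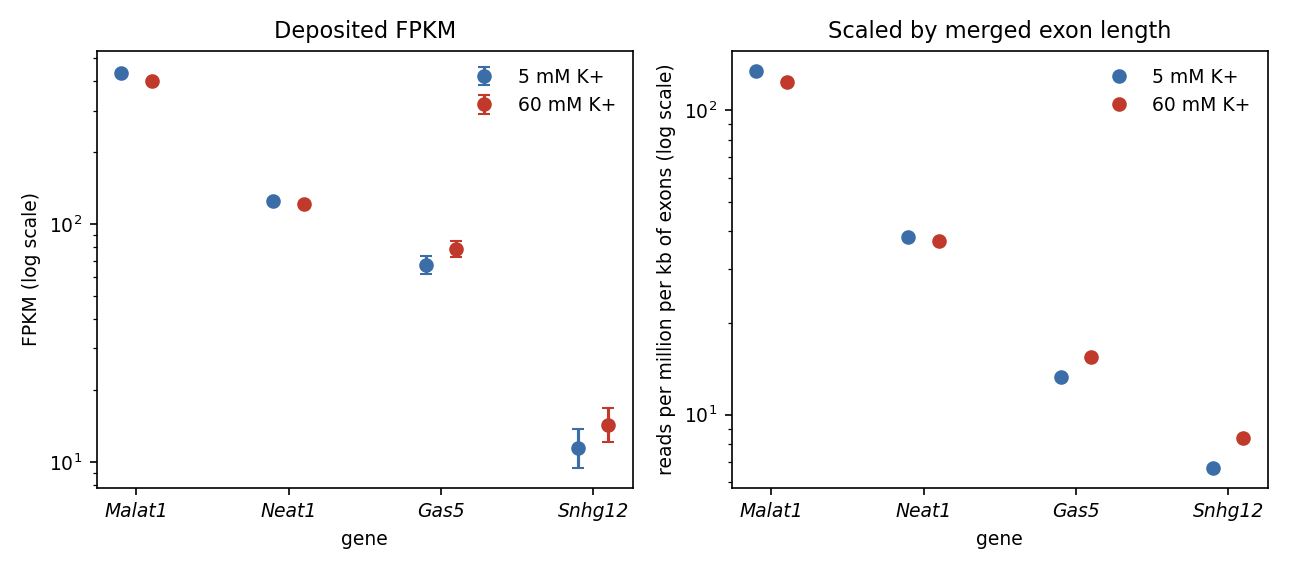
Levels of the 4 long noncoding RNAs with reads (x axis) in the 5 mM K+ library (blue) and the 60 mM K+ library (red), on log axes, as deposited FPKM with exact Poisson 95% intervals (left) and as CPM per kilobase of merged exons (right, no intervals drawn). The order is Malat1, Neat1, Gas5, Snhg12 in both panels, with Malat1 at 433 and 398 FPKM and Snhg12 at 11.4 and 14.3 FPKM.

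Between the libraries, the host RNAs Gas5 and Snhg12 were modestly higher at 60 mM K+, and the nuclear RNAs Malat1 and Neat1 differed by little. After scaling by the trimmed mean of M-values (TMM), the log2 fold change of 60K over 5K was 0.54 for Snhg12 (95% counting interval 0.18 to 0.90) and 0.43 for Gas5 (0.26 to 0.60). As folds these were 1.45 (1.13 to 1.86) and 1.35 (1.20 to 1.52). Neat1 had a log2 fold change of 0.16 (0.12 to 0.21), a fold of 1.12, and Malat1 one of 0.086 (0.045 to 0.13), a fold of 1.06. The counting interval lay above 0 for these 4 genes, as it did for 25% of the 14829 genes with at least 10 reads over both libraries (20.3% lay below 0), and for 34.1% of the 9291 genes with at least 200 reads. Among the 14829 genes, Snhg12 lay at percentile 86.7, Gas5 at 82.5, Neat1 at 65.1 and Malat1 at 57.6. The median of the 4 was 0.30 and that of the 14829 genes was -0.0047.

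None of the 4 passed a fold of 2, which 5.54% of the 14829 genes did upward and 5.86% downward. None was called by the random-sampling test, which compares the libraries and not the conditions, at a q-value under 0.005 with that fold. That test called 2.11% of 21374 genes with a read as higher in the 60K library (452 genes) and 1.1% as lower (235 genes). The study's own run, with the same stated thresholds, listed fewer genes in both directions, so the test as rewritten here does not reproduce its calls. In the plot of all genes the 4 RNAs lie inside the lines that mark a fold of 2.

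**Figure D2:**
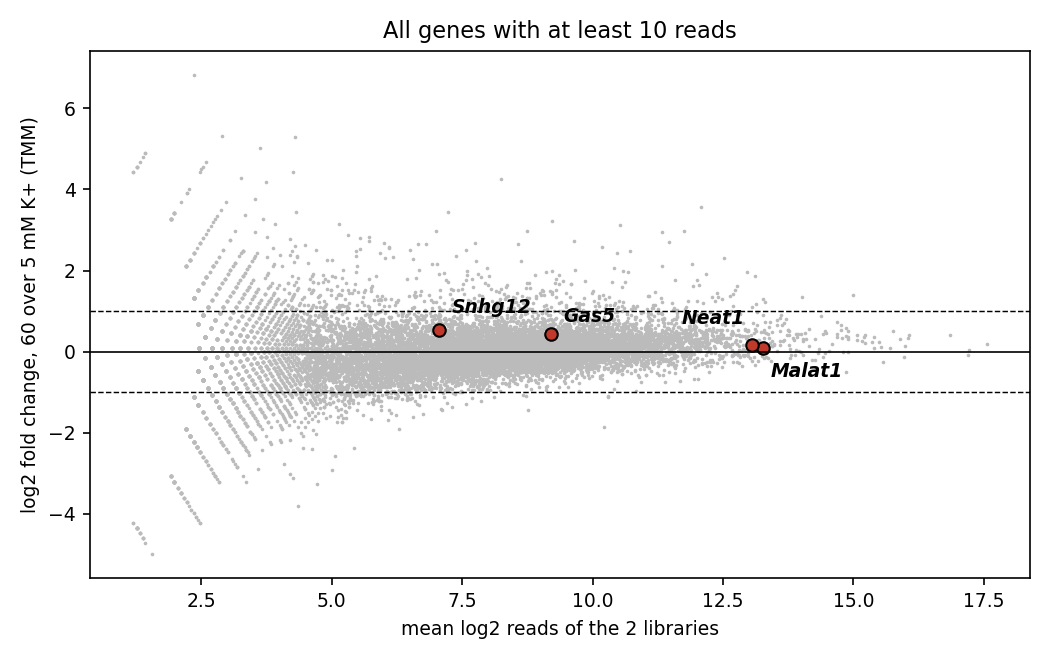
Log2 fold change of 60 over 5 mM K+ after TMM scaling (y axis) against the mean log2 reads of the 2 libraries (x axis) for the 14829 genes with at least 10 reads (grey), with the 4 long noncoding RNAs in red and dashed lines at a fold of 2. Snhg12 and Gas5 sit at 0.54 and 0.43, and Neat1 and Malat1, far to the right with most reads, at 0.16 and 0.086.

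The direction for Malat1 and Neat1 rested on the scaling between libraries. With library totals in place of TMM factors, Malat1 had a log2 fold change of -0.12 (-0.16 to -0.082) and Neat1 one of -0.044 (-0.087 to -0.00036), both below 0, as 38.4% of the genes were. Gas5 remained above 0 at 0.22 (0.056 to 0.39), as 13.6% of the genes were. Snhg12 was at 0.33 with an interval that held 0 (-0.032 to 0.69). Library totals moved the median of all tested genes to -0.21. Relative to the median of all tested genes, Malat1 was higher by 0.091 on the log2 scale, Neat1 by 0.17, Gas5 by 0.44 and Snhg12 by 0.54, and these differences are the same under either scaling. With upper-quartile scaling the values were 0.043 for Malat1, 0.12 for Neat1, 0.39 for Gas5 and 0.49 for Snhg12, with the interval above 0 for these 4 and for 22.1% of all tested genes, and below 0 for 23.8%. With median-of-ratios scaling they were 0.073, 0.15, 0.42 and 0.52, and the interval again lay above 0 for the 4, against 24.2% of all tested genes above and 21.4% below.

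**Figure D3:**
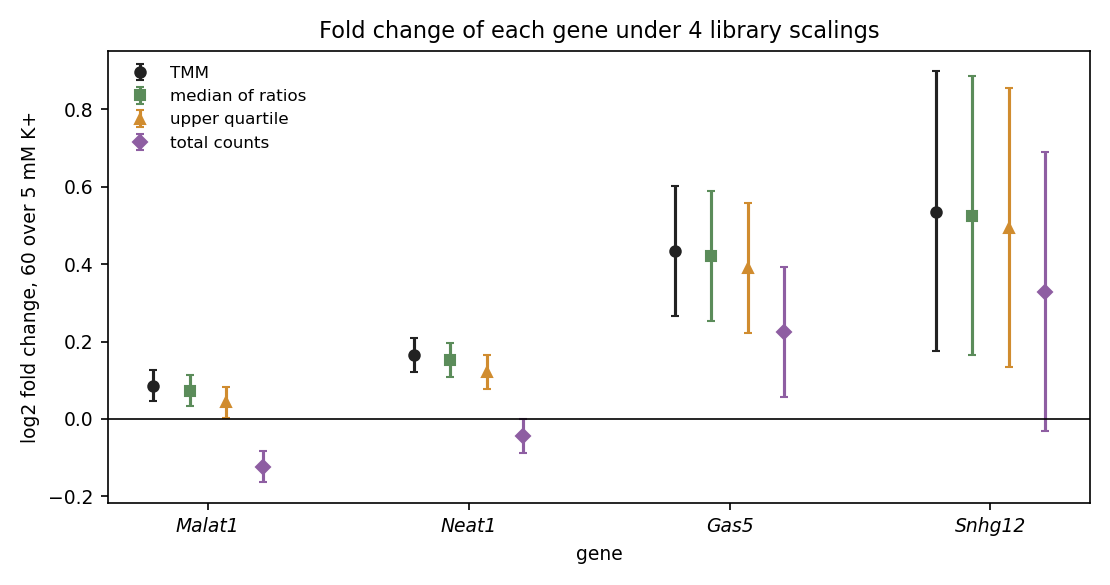
Log2 fold change of 60 over 5 mM K+ (y axis) for Malat1, Neat1, Gas5 and Snhg12 (x axis) under TMM, median-of-ratios, upper-quartile and total-count scaling, with 95% counting intervals. Malat1 and Neat1 move below 0 with total counts, at -0.12 and -0.044, whereas Gas5 stays above 0 under the 4 scalings and the interval of Snhg12 reaches below 0 with total counts.

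A ratio of 2 genes within a library needs no scaling between libraries, and these ratios were added after the values above had been seen. Gas5 reads amounted to 5.31% of Malat1 reads in the 5K library and 6.75% in the 60K library, a log2 change of the ratio of 0.35 (0.17 to 0.52). Against Neat1, Gas5 went from 6.28% to 7.56%, a log2 change of 0.27 (0.094 to 0.44). The ratio of Gas5 to the nuclear RNA was higher in the 60K library in both comparisons. Both use the same Gas5 reads and restate the fold changes above without scaling, so they are not separate evidence. How many other genes rose against Malat1 or Neat1 was not counted. Snhg12 went from 1.16% to 1.58% of Malat1, a log2 change of 0.45 (0.088 to 0.81), and from 1.37% to 1.77% of Neat1, one of 0.37 (0.0089 to 0.74). With intervals that hold over the 6 pairs together (99.2% each), both Gas5 ratios stayed above 0, from 0.12 to 0.58 over Malat1 and from 0.035 to 0.50 over Neat1. The corresponding Snhg12 intervals then held 0, from -0.032 to 0.94 over Malat1 and from -0.11 to 0.86 over Neat1. Within each class the changes were smaller as point values. Neat1 over Malat1 was 0.846 and 0.893, a log2 change of 0.079 (0.019 to 0.14) whose joint interval held 0 (-0.0011 to 0.16). Snhg12 over Gas5 was 21.8% and 23.4%, a log2 change of 0.10 (-0.30 to 0.50).

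The genes beside the 4 RNAs were read next, because the library kit does not mark strand and whether counting used strand is not given in the sources used here. Gm20417, a noncoding gene without a row, lies inside Malat1 on the other strand over 988 bases, of which 425 are exonic in both. Gas5 lies head to head with Zbtb37, which codes for a zinc finger protein and overlaps it on the other strand over 428 bases, with 0 exonic bases in common. Zbtb37 had 91 reads in the 5K library and 38 in the 60K library, a log2 fold change of -1.16 (-1.74 to -0.60), opposite in sign to Gas5. Serpinc1, a flanking gene that codes for antithrombin, had 1 and 3 reads. The gene 739 bases downstream of Snhg12, Trnau1ap, which acts in selenocysteine incorporation, had 295 and 290 reads and a log2 value of 0.077 (-0.16 to 0.32). Rab42-ps, on the other side, had 4 and 2 reads. Frmd8, which lies 4224 bases from Neat1, had 268 and 255 reads, for a log2 fold change of 0.030 (-0.22 to 0.28). The interval of Gas5 did not overlap that of Zbtb37, whereas the interval of Snhg12 overlapped that of Trnau1ap.

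**Figure D4:**
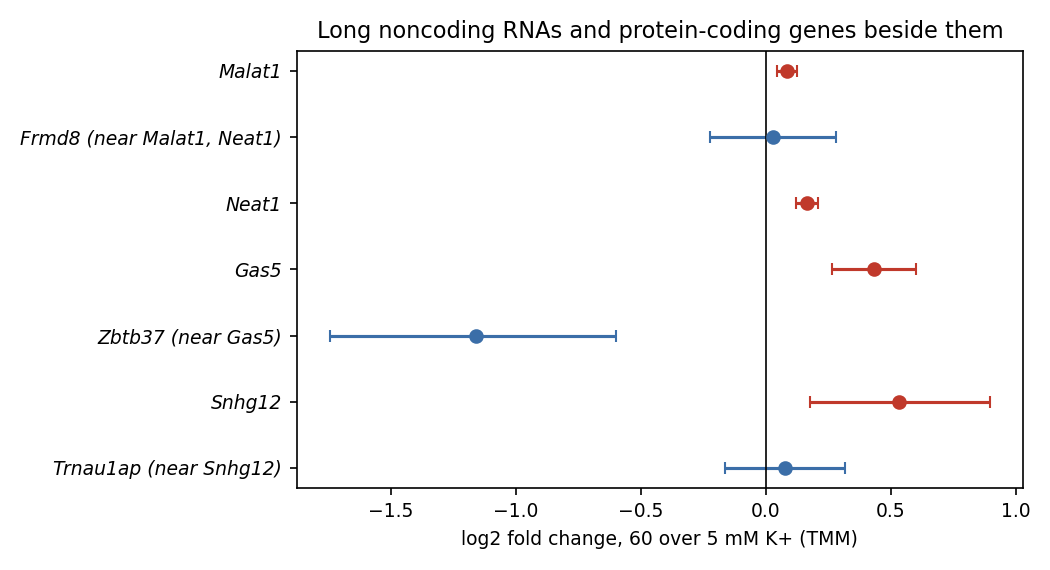
Log2 fold change of 60 over 5 mM K+ after TMM scaling (x axis) with 95% counting intervals for the 4 long noncoding RNAs (red) and the 3 protein-coding genes beside them that are described here and have at least 50 reads (blue). Zbtb37 at -1.16 lies opposite to Gas5 at 0.43, and Frmd8 and Trnau1ap have intervals that include 0.

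The loci of Snhg3, which had 0 reads, and Snhg1, which matched no row, were described by what surrounds them. Beside Snhg3, Phactr4, a regulator of protein phosphatase 1 and actin, had 949 and 619 reads, with a log2 fold change of -0.52 (-0.66 to -0.37). Rcc1 was at -0.22 (-0.70 to 0.26). At the Snhg1 locus, Slc3a2, the heavy chain of amino acid transporters, starts 127 bases away on the other strand and had 1943 reads in the 5K and 3433 in the 60K library, a log2 fold change of 0.92 (0.84 to 1.00). Wdr74, a ribosome assembly factor on the other side, had 206 and 254 reads, with a log2 fold change of 0.40 (0.13 to 0.68). No value of Snhg1 itself stands beside these.

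The snoRNAs carried by the hosts had no reads assigned to them. The annotation places 9 snoRNA genes inside Gas5, 8 inside Snhg1, 2 inside Snhg3 and 4 inside Snhg12. All 23 had a row and each had 0 reads in both libraries. Most of them lie within annotated exons of host transcripts, where a read fits both genes, so a 0 does not show whether the snoRNA was in the library. Over the 1225 snoRNA genes with a row, 124 had a read in either library, and the summed reads were 365 in the 5K and 367 in the 60K library. The RNA was selected by poly-T beads and fragments were size-selected, and the host values are not levels of the snoRNAs. The long Neat1 isoform, which lacks a poly(A) tail, cannot be told apart from the short one. How fully the beads recovered each RNA, Malat1 included, was not measured.

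Other noncoding snoRNA hosts went both ways. Of 15 listed, 7 matched a row and 5 had at least 10 reads: 1 lay above 0, 1 below and 3 held 0, with a median log2 fold change of 0.33, which was -0.23 over the 3 that overlap no other annotated gene. Snhg15, with the most reads (276 and 327), was at 0.35 (0.11 to 0.58), and Snhg17 (147 and 100 reads) was at -0.45 (-0.84 to -0.078). A list taken whole from the annotation, added after the data were seen, held 22 noncoding genes with a snoRNA inside, of which 11 had 0 reads. Of the 11 tested, Gas5 and Snhg12 among them, 6 lay above 0 and 1 below, with a median of 0.36. Without Gas5 and Snhg12 the count was 4 above and 1 below among 9, with a median of 0.35. These include Snhg15, Snhg17 and Snhg20 of the list before and Epb41l4aos of a list below, so the counts overlap. The 447 annotated noncoding genes with at least 10 reads had a median of -0.25, with 9.84% above 0 and 19.9% below. Over the 136 of them that overlap no other annotated gene the median was -0.11. Over the 7 such genes among the 11 annotated noncoding hosts, Snhg12 included, it was 0.54.

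Protein-coding hosts lay higher in the list written by hand than in the annotation. Of 20 listed, 14 lay above 0 and 1 below, with a median log2 fold change of 0.32. Eef2, the translocase of translation elongation, had the most reads (23963 and 32619) and the highest value, 0.55 (0.52 to 0.57). Dkc1, the pseudouridine synthase of H/ACA snoRNA particles and itself a host, had the lowest, -0.45 (-0.76 to -0.14), with 217 and 148 reads. Among the 237 annotated coding hosts tested, 71 lay above 0 and 47 below, with a median of 0.034. The hand-written list is rich in ribosomal protein and translation factor genes, and 30 other mRNAs of that kind, which begin with pyrimidines at the cap, had a median of 0.42 with 30 above 0. They ran from Eef1g at 0.14 (0.067 to 0.21) to Rpl18 at 0.65 (0.58 to 0.71), with Eef1a1, the most abundant at 40187 and 44057 reads, at 0.23 (0.21 to 0.25). With library totals their median was 0.22, and 27 of the 30 still lay above 0. Gas5 at 0.43, Snhg12 at 0.54 and Neat1 at 0.16 lay within the range of these mRNAs, and Malat1 at 0.086 lay below it. The share of all tested genes inside that range was not counted.

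The mRNAs for proteins that assemble snoRNA particles or degrade host RNAs were mixed. Of 14 particle and assembly genes, 5 lay above 0 and 2 below, with a median log2 fold change of 0.17. Nhp2, a core H/ACA protein, had the highest value, 0.50 (0.24 to 0.77), from 208 and 275 reads, and Dkc1 the lowest. Fbl, the methyltransferase of C/D particles, had the most reads over both libraries (824 and 889) and was at 0.21 (0.073 to 0.35). Naf1, an H/ACA assembly factor with the most reads in the 5K library (889 and 702), was at -0.24 (-0.38 to -0.095). Of 14 nonsense-mediated decay and exon junction genes, 7 lay above 0 and 2 below, with a median of 0.19. Magoh, an exon junction core protein, had the highest value, 0.51 (0.28 to 0.73), from 286 and 379 reads. Smg1, the kinase that phosphorylates Upf1, had the most reads (1355 and 1061) and the lowest value, -0.25 (-0.37 to -0.13). With library totals the medians of both lists fell below 0, to -0.040 and -0.023.

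The mRNAs for proteins of the bodies that hold Neat1 and Malat1 were centred near 0. Of 15 paraspeckle genes, 6 lay above 0 and 2 below, with a median log2 fold change of 0.051 (-0.16 with library totals). Hnrnpk, with the most reads (4389 and 4151), was at 0.021 (-0.041 to 0.083). Taf15, an RNA-binding protein, was highest at 0.50 (0.37 to 0.63), from 868 and 1142 reads, and Cpsf6, a subunit of the cleavage factor at poly(A) sites, was lowest at -0.48 (-0.66 to -0.30), from 636 and 426 reads. The speckle list went both ways, with 7 of 16 above 0 and 6 below, and a median of 0.029 (-0.18 with library totals). Srsf5, a splicing factor with the most reads (7045 and 8558), was highest at 0.38 (0.34 to 0.43). Luc7l3, another splicing protein of the speckle, was lowest at -0.64 (-0.78 to -0.50), from 1068 and 639 reads.

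A further list held long noncoding RNAs of other kinds, along with Epb41l4aos, which also has a snoRNA inside. Of 20 listed, 10 matched a row and 9 were tested: 2 lay above 0 and 5 below, with a median log2 fold change of -0.26. Epb41l4aos had 50 and 75 reads and a value of 0.69 (0.15 to 1.23). Oip5os1 had the most reads in the 5K library (1528 and 891) and, among those with at least 50 reads, the lowest value, -0.68 (-0.80 to -0.56). Mir22hg, the host of a microRNA, had the most reads over both libraries (1108 and 2062) and the highest value, 1.00 (0.89 to 1.10), in a gene that overlaps another; before rounding this value was under 1. Malat1 and Neat1 lay between these, and no gene with at least 10 reads in any of the 8 lists passed a fold of 2.

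**Figure D5:**
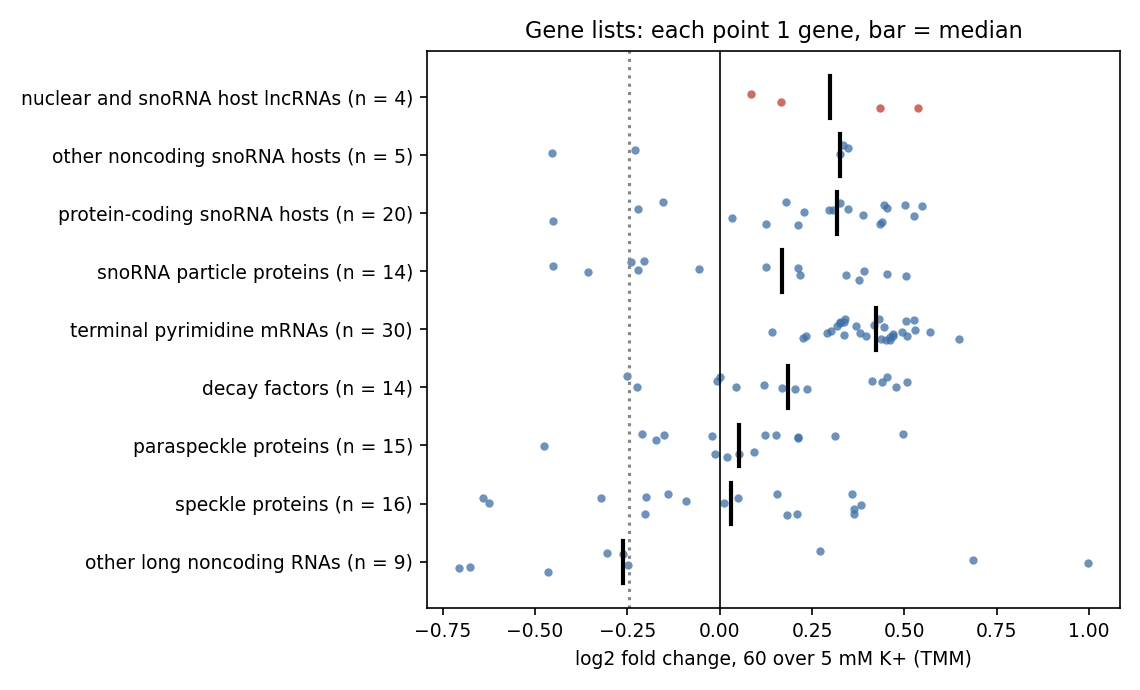
Log2 fold change of 60 over 5 mM K+ after TMM scaling (x axis) for each gene with at least 10 reads (points, spread vertically for display) in the 4 long noncoding RNAs (red) and 8 related lists (blue), with black bars at the medians and a dotted line at the median of 447 annotated noncoding genes, -0.25. The medians run from -0.26 for other long noncoding RNAs to 0.42 for terminal pyrimidine mRNAs, with 0.30 for the 4 RNAs.

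The makeup of the samples was read from marker lists. Smooth muscle markers dominated, with 42379 CPM summed over 10 genes in the 5K and 40129 in the 60K library, of which 7 lay above 0 and 3 below by counting interval after TMM scaling. Summed CPM of 10 endothelial markers was 3795 and 4437 (8 above, 1 below), and that of 10 fibroblast markers 14919 and 11314 (2 above, 8 below). Adipocyte markers went from 320 to 206 CPM (1 above and 6 below of 9), and red cell markers from 89.2 to 49.7 (0 above and 4 below of 6, with Slc4a1 at 0). Macrophage markers summed to 56.7 and 43.1 CPM (1 above, 3 below of 10). Schwann and neuronal markers summed to 231 and 205 (2 above, 3 below of 9, with Th at 0). Mitochondrial transcripts took 2.69% and 3.16% of the reads. The part of these shifts in the values of Malat1, Neat1, Gas5 and Snhg12 was not tested.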

How the data were processed

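RNA from mesenteric arteries of the 2 groups was selected with poly-T beads and made into libraries with a kit that does not mark strand. The submitters' processing notes name TopHat2 2.0.12, HTSeq 0.6.1, edgeR 3.0.8 and the builds mm8 and mm9, and the study's methods give alignment to mm9. The annotation used for counting is not given in the sources used here. The authors deposited raw read counts per gene, without normalization, and FPKM values, which follow from the same counts, a length for each gene and the library totals. Depth was 10480918 and 11289598 reads, and 0 columns were left unused. Gene positions and names came from GENCODE vM1 on NCBIM37, which holds 32601 of the 55573 rows, and promoter windows from RefSeq on GRCm38.p6. The other 22972 rows are not in GENCODE vM1, so the counts rest on an annotation that is not GENCODE vM1 alone. The gene models behind the counts may differ from those described, on which the levels per exon length rest.

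Library sizes were scaled by TMM (edgeR 4.0.16, R 4.3.3), and log2 fold changes were given exact binomial (Clopper-Pearson) 95% intervals from the share of a gene's reads in the 60K library. Genes with at least 10 reads over both libraries were described. Intervals cover counting error only and treat each read as independent. PCR copies of 1 molecule are not independent, so the intervals may be too narrow even for counting error. DEGSeq's MA-plot test, the random-sampling test of the text, was rewritten from its published description, with Benjamini-Hochberg adjustment, a count of 0 being set to 0.5, and was tested on simulated data. For each pair of genes, the log2 change of the ratio had an exact interval from the 2 by 2 table of reads. The length behind an FPKM value was solved from the count and the total. For 35.9% of 17379 genes it lay within 1 base of the mean annotated transcript length.

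The genes and lists were chosen with earlier results of these data known. The text names the 7 genes, the nearest protein-coding gene on each side, the snoRNA genes inside, and in each list the gene with the most reads and those with the highest and lowest fold change among genes with at least 50 reads. Some genes that this rule names are not reported here. Rcc1 and Zbtb37 are named because they overlap a host. Epb41l4aos, a gene of 2 lists, and Naf1 are named outside this rule and were chosen after their values were seen. The lists taken whole from the annotation, the share among genes of 200 reads or more and the ratios within a library were chosen after seeing the data. Other settings tried were scaling by library totals, upper quartiles or DESeq2 1.42.0 size factors, 99% intervals, FPKM with pseudocounts of 0.1 and 1, other minimum reads, a binomial test, the edgeR exact test at a dispersion set by hand (coefficient of variation 0.1, 0.2 or 0.4), a q-value threshold of 0.05, genes without overlap and exon length. Plots were made in matplotlib 3.10.9 under Python 3.11.15.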

Additional observations from a re-analysis of the deposited data

How the results depend on the processing

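With total-count scaling in place of TMM, the number of the 4 genes with a counting interval above 0 went from 4 to 1 and the number below 0 from 0 to 2, and their median log2 fold change went from 0.30 to 0.0901. From FPKM, which is scaled by library totals, that median was 0.0900 with a pseudocount of 0.1 and 0.0887 with a pseudocount of 1. Malat1 changed sign to -0.123 and Neat1 to -0.0439 with total counts, to -0.123 and -0.0438 from FPKM with a pseudocount of 0.1, and to -0.123 and -0.0435 with a pseudocount of 1. The interval of Snhg12 held 0 with total counts, at 0.33. Upper-quartile and median-of-ratios scaling and 99% intervals kept 4 genes above 0. No gene of the 4 passed a fold of 2 or was called under any of the alternatives run for those counts, and exon length kept the order of levels. Among lists, the median of the other noncoding hosts was -0.23 without genes that overlap another, against 0.33 with them, and that of the coding hosts was 0.43, against 0.32.

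No paired analysis was possible because either group held 1 library, and leaving out a replicate was not possible either. The spread between animals was not measured. At 114 and 154 reads, the interval of Snhg12 covers folds from 1.13 to 1.86, and below 3 reads, as for Snhg3, no difference was detectable at this depth.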
